A study of Mus musculus with 22 samples.

Results

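The genes described here lie side by side on mouse chromosome 9, between 80 and 90 Mb of the GRCm38 build, on both sides of the serotonin receptor gene Htr1b. Of 97 gene identifiers that start in this window, 69 had at least 1 count and 48 had 10 or more counts in at least 3 of the 22 samples. Htr1b (chr9:81628291-81633828, minus strand) and Rasgrf1 (chr9:89909908-90026977, plus strand) were left out, which gave 46 genes of the 39179 identifiers in the tables. The window was chosen by the p-values and log2 differences of its genes between Phf8 knockout (KO) and wild type (WT) prefrontal cortex. Those values are therefore given below as a description with no test. The tests concern the other samples and the differences between WT tissues. The WT PFC samples were part of the choice, so the tests of WT PFC against WT STR are not independent of it.

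RNA was sequenced from 4 tissues or cell types of mice of the mixed strain background B6x129SvJ. Prefrontal cortex (PFC) and ventral striatum (STR) came from animals of 2 months, with 3 WT and 3 Phf8 KO samples each. Embryonic stem cells (ESC, 2 WT and 2 KO) were grown out of blastocysts and kept on gelatin or feeder cells. Neural progenitor cells (NPC, 3 WT and 3 KO) came from E16.5 embryos and grew as a monolayer. The KO allele lacks a pair of exons of Phf8, an X-linked gene for a demethylase of repressive histone marks, and was made in targeted clones of the V6.5 ESC line. The strain origin of the chromosome 9 segment in each sample is not in the labels and was not determined here. Each sample was counted as 1 replicate, and the labels do not say whether PFC and STR samples with the same number came from the same mouse.

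Genes that neighbour each other on a chromosome need not share a pathway, and this window holds genes of unrelated roles. They include coats and motors of membrane traffic (Snap91, Snx14, Myo6), enzymes of central metabolism (Me1, Pgm3, Bckdhb, Elovl4), regulators of chromatin and RNA (Phip, Hmgn3, Syncrip), genes of meiosis, mitosis and the cilium (Mei4, Ttk, Lca5, Cep162) and the melanocortin receptor accessory protein Mrap2. Htr1b itself encodes a receptor through which serotonin dampens transmitter release.

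The 46 genes comprised 37 protein coding genes, 3 antisense RNAs, 3 processed transcripts, 2 pseudogenes and 1 long intergenic RNA, with 22 on the plus and 24 on the minus strand. Counts reached 10 in all 22 samples for 29 genes and fell short in at least 1 sample for 17. An overlap with another annotated gene was present for 30 of the 46, and for 25 the overlapping gene lay on the opposite strand. The strand setting of the counting is not given in the sources used here, so reads of such a gene and its antisense partner could not be told apart. This concerns the RNA D430036J16Rik (chr9:81631551-81645156, plus strand), which overlaps Htr1b. It also concerns 9330154J02Rik on Tpbg, A330041J22Rik on Me1 and Gm17477 on Senp6. At the lower edge the first gene inside was Senp6, starting at 80066903, and the nearest counted gene outside was Filip1, starting at 79815051. At the upper edge the last gene inside was Ankrd34c, starting at 89725245, and the nearest counted gene outside was Ctsh, starting at 90054152. In PFC the log2 difference of KO from WT was 0.03 ± 0.07 (SE) for Senp6 and -0.46 ± 0.34 for Filip1, and 0.47 ± 0.26 for Ankrd34c and -0.27 ± 0.13 for Ctsh. The least counted genes inside the count rule, Trim43a and 9330154J02Rik, reached 10 counts in 5 samples, with maxima of 16 and 13. The next gene outside the rule, Trim43c, reached 10 in 0 samples, with a maximum of 9.

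The promoters of 4 genes are shown as examples from both directions of the values described below: Mei4 and Mrap2 were higher in every KO than in every WT sample of PFC, and Snhg5 and Myo6 were lower. Each line gives the 250 bases before the RefSeq start of the gene on GRCm38.p6, 5′ to 3′ on the strand of the gene. Capitals mark GC boxes (GGGCGG on either strand), CCAAT boxes (CCAAT on either strand) and TATA boxes (TATAAA on either strand), and overlapping GC boxes run together. The windows were chr9:81863420-81863669 (plus strand) for Mei4, chr9:87144056-87144305 (plus) for Mrap2, chr9:88522898-88523147 (minus) for Snhg5 and chr9:80164784-80165033 (plus) for Myo6.
Mei4: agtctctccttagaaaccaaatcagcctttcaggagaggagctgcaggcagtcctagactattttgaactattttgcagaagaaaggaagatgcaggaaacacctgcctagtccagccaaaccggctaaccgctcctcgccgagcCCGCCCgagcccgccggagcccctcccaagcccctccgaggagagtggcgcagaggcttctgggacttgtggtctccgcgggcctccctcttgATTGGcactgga
Mrap2: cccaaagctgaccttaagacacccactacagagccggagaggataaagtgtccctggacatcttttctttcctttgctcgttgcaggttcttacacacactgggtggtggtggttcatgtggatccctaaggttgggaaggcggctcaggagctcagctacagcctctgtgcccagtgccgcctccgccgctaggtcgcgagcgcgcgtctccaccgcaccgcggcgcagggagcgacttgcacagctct
Snhg5: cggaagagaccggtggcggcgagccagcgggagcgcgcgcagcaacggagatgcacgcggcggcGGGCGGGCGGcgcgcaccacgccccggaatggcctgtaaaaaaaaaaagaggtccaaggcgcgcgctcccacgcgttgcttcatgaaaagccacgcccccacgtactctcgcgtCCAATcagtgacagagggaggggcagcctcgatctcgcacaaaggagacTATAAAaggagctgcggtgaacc
Myo6: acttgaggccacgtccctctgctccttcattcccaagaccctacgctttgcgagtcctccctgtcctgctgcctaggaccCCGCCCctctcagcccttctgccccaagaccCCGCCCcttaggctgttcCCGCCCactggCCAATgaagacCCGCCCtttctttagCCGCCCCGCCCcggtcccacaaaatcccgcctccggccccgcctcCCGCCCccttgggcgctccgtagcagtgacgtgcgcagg
The Myo6 window held 7 GC boxes and 1 CCAAT box. The Snhg5 window held 2 overlapping GC boxes, 1 CCAAT box and 1 TATA box, the Mei4 window 1 GC box and 1 CCAAT box, and the Mrap2 window none of the 3 motifs. Of the 46 genes, 41 matched an entry of the RefSeq promoter table, with 51 entries, and Hmgn3, Gm17477, Gm9531, Rps27a-ps2 and 9330154J02Rik did not. Over the 51 entries the median GC content was 62.4%, beside 52.4% over all 32851 promoters of the table, and the median ratio of observed to chance CpG was 0.74, beside 0.374. A GC box was present in 68.6% of the entries and in 32.7% of all promoters, a CCAAT box in 39.2% and 33.8%, and a TATA box in 9.80% and 12.4%. The E-box CACGTG was present in 7.84% and 6.02%, and the cyclic AMP response element TGACGTCA, for which CREB proteins are known, in 0 of the entries and in 1.55% of all promoters. These matches describe letters in the window and not binding of a factor. The genes of the window had met the count rule, whereas all promoters of the table were taken with no count filter. The sets are therefore unlike, and nothing is read from the difference.

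Phf8 itself checked the labels: its level was lower in every KO than in every WT sample of each tissue, by a log2 difference of -1.37 in PFC, -1.37 in STR, -1.41 in NPC and -1.79 in ESC. Total counts on genes ranged from 5898286 to 15539811 per sample, with the PFC sample WT replicate 3 the lowest. Marker lists set some samples apart from the others of their group. Marker sums are in CPM (counts-per-million) normalised over all 22 samples. The CPM of single genes below were normalised within the samples of each comparison. In STR KO replicate 1 the summed level of 10 hypothalamic genes was 204 CPM, against 25.9 and 35.8 CPM in the other KO samples. All were above the 15.9 to 18.9 CPM of the WT samples, and the 4 genes tested were all higher in KO. The summed level of 5 cortical excitatory neuron genes in STR KO replicate 1 was 69.2 CPM, against 330.2 to 502 CPM in the other 5 STR samples. In PFC the summed level of 7 oligodendrocyte genes was 1405 to 1493 CPM in KO and 1749 to 2281 CPM in WT samples, with all 7 genes lower in KO and 5 of them past a false discovery rate (FDR) of 0.05 in edgeR's quasi-likelihood test. In a bulk sample fewer cells of a type and less RNA per cell cannot be told apart. The 6 striatal projection neuron genes summed to 163 to 171 CPM in KO and 142 to 168 CPM in WT samples of PFC, with 4 genes higher and 2 lower. The 5 blood genes summed to 37.6 to 38.5 CPM in KO and 45.3 to 61.6 CPM in WT samples of PFC, with 5 of 5 lower and 0 past the FDR, and to 30.5 to 40.7 CPM and 41.8 to 48.9 CPM in STR. Of the 6 astrocyte genes 5 were lower in PFC KO, 1 of them past the FDR, with overlapping sums of 1761 to 1859 CPM in KO and 1807 to 1982 CPM in WT samples. In NPC the oligodendrocyte sum was 42.7 CPM in WT replicate 2 and 178 CPM in KO replicate 2, against 1443 to 2475 CPM in the other 4 samples. In ESC the summed level of 6 fibroblast genes was 3757 CPM in WT replicate 2 and 4551 CPM in KO replicate 2, against 176 and 167 CPM in replicate 1 of each genotype. The pluripotency genes were present in all 4 samples, at 3434 to 4312 CPM. The part of these cell types in the results was not tested.

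**Figure D1:**
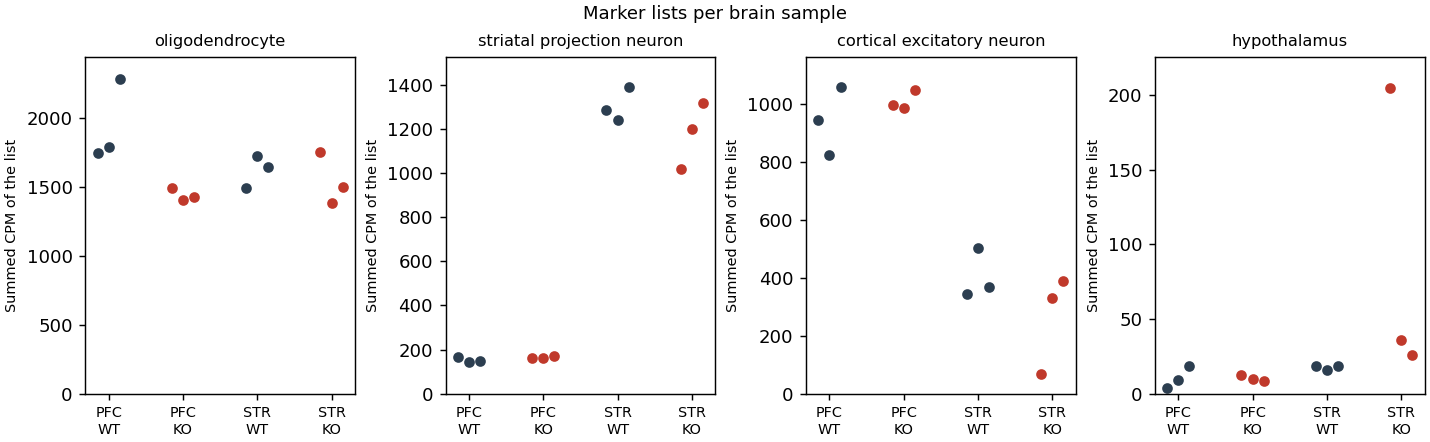
Summed level of 4 marker lists in each of the 12 brain samples, with WT samples as dark and KO samples as red points. Levels are in CPM normalised over all 22 samples, on linear axes from 0. The oligodendrocyte sums of PFC do not overlap between genotypes, and STR KO replicate 1 lies at 204 CPM for the hypothalamic list. The other STR KO samples also lie above every STR WT sample for that list.

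In WT samples the window held a few highly expressed genes and many low ones. PFC and STR shared their leading genes, and Hmgn3 was among the leading genes of NPC too. Levels were compared between genes as RPKM, the CPM normalised over all 22 samples and divided by the exon length in kilobases. In PFC, Snap91, which encodes the clathrin assembly protein AP180 of synaptic vesicle recycling, led at 34.8 ± 2.99 RPKM (SD, n = 3), followed by Elovl4, an elongase of very long chain fatty acids, at 30.5 ± 1.14, and Hmgn3, a nucleosome binding protein, at 23.8 ± 3.29. The same genes led in STR, with Snap91 at 26.01 ± 1.65 RPKM, Elovl4 at 25.1 ± 1.60 and Hmgn3 at 22.7 ± 0.447, and the sample ranges of Snap91 and Elovl4 overlapped there. In NPC, Myo6, a myosin that moves towards the minus end of actin filaments, stood at 71.4 ± 20.7 RPKM, Me1, the cytosolic malic enzyme that makes NADPH, at 66.2 ± 9.57 and Hmgn3 at 47.3 ± 7.45, and the ranges of Myo6 and Me1 overlapped. In ESC, the pseudogene Gm9531 stood at 99.98 ± 10.1 RPKM (SD, n = 2), the small nucleolar RNA host gene Snhg5 at 59.5 ± 6.44 and Bckdhb, a subunit of branched-chain keto acid dehydrogenase, at 39.6 ± 5.01. Reads of a processed pseudogene such as Gm9531 can be shared with its parent gene, so its level is uncertain. Of the 46 genes, 24 reached 1 RPKM in all 4 tissues and 9 in none, and the highest tissue was PFC for 11, STR for 11, NPC for 11 and ESC for 13.

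**Figure D2:**
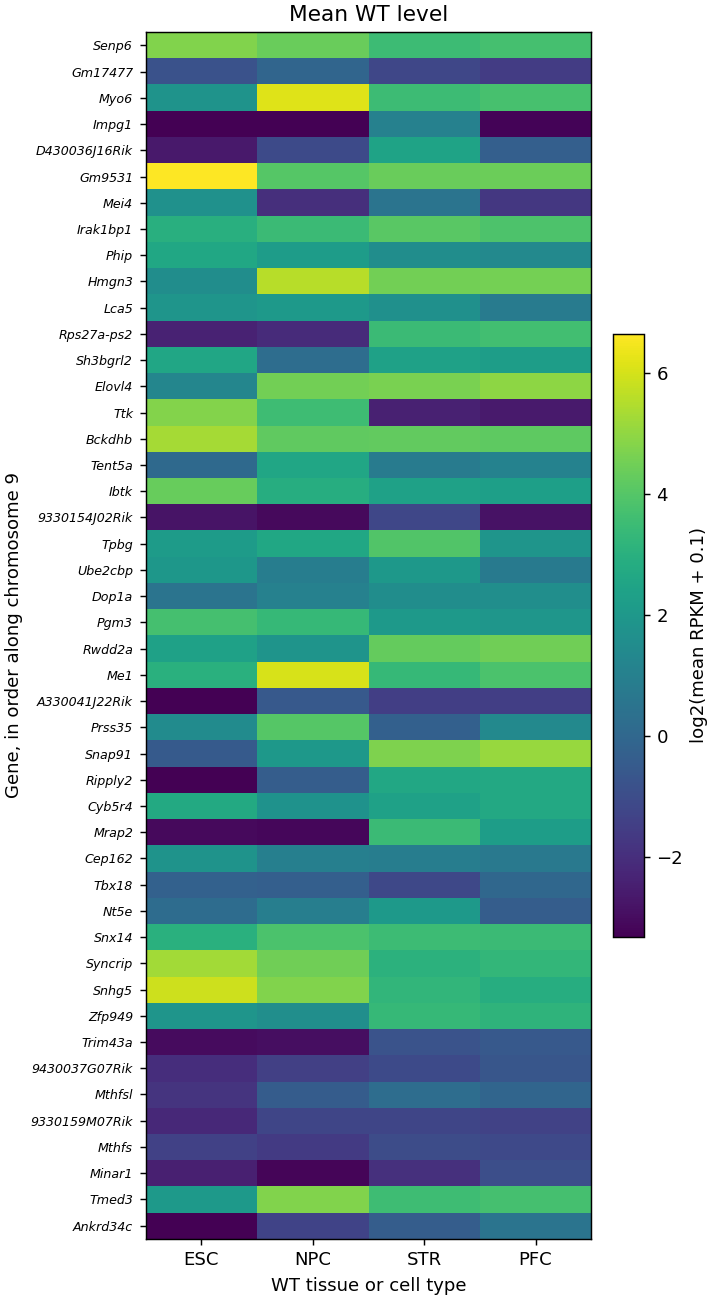
Mean level of the 46 genes in WT samples of the 4 tissues, as log2(mean RPKM + 0.1), with genes in their order along chromosome 9 and colour from low (dark) to high (yellow). High and low genes alternate along the window, and the highest value is that of Gm9531 in ESC.

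PFC and STR of WT mice differed in 16 of the 43 genes tested at an FDR of 0.05, which was 37.2% of them beside 24.4% of all 15555 genes tested. In PFC 7 were higher (Elovl4, Me1, Prss35, Snap91, Tbx18, Minar1 and Ankrd34c), beside 13% of all genes. In the same region 9 were lower, beside 11.4% of all genes (Impg1, D430036J16Rik, Mei4, Lca5, 9330154J02Rik, Tpbg, Ube2cbp, Mrap2 and Nt5e). Of these 9, Impg1 and 9330154J02Rik met the count rule only through STR samples, so that their difference was set by the rule. Without these 2 genes, 14 of 41 passed (34.1%), with 7 higher and 7 lower. The WT PFC samples also took part in choosing the window. D430036J16Rik, Mei4, Tpbg, Mrap2 and Prss35 are among the genes described below for PFC KO, so their tests here are not independent of that choice. The ecto-5′-nucleotidase gene Nt5e, whose enzyme makes extracellular adenosine, was at 5.79 to 6.93 CPM in PFC and 38.3 to 42.5 CPM in STR, a log2 difference of -2.64 ± 0.13 (SE) with an FDR of 3.09e-07. Tpbg, which encodes the trophoblast glycoprotein at the cell surface, was at 14.4 to 15.6 CPM in PFC and 60.4 to 74.8 CPM in STR, a log2 difference of -2.15 ± 0.11 with an FDR of 5.07e-07. Mei4, whose protein helps to form DNA breaks in meiosis, was at 0.866 to 1.053 CPM in PFC and 4.75 to 7.92 CPM in STR, a log2 difference of -2.69 ± 0.30 with an FDR of 9.55e-05. None of the 3 genes overlapped between the regions, and all 3 were higher in STR. The antisense RNA D430036J16Rik was at 1.40 to 2.10 CPM in PFC and 10.2 to 15.6 CPM in STR, a log2 difference of -2.89 ± 0.25 with an FDR of 1.71e-05. Impg1, known as a proteoglycan of the retinal matrix, was at 6.75 to 9.11 CPM in STR and at 0 to 0.0975 CPM in PFC, where 1 read was counted in all 3 samples. These values are a description with no test. On the other side, Prss35, a serine protease homolog, was at 8.04 to 12.5 CPM in PFC and 2.05 to 3.83 CPM in STR, a log2 difference of 1.72 ± 0.27 with an FDR of 0.000994. Tbx18, a T-box factor of mural cells, was at 4.21 to 5.57 CPM in PFC and 1.64 to 2.06 CPM in STR, a log2 difference of 1.37 ± 0.24 with an FDR of 0.00217. Me1 was 1.36-fold higher in PFC (FDR 0.00489), Minar1 2.68-fold (FDR 0.0059) and Snap91 1.31-fold (FDR 0.00922). The FDR values above come from the fit without a block. Same-numbered PFC and STR samples deviated together, and with the number as a block 22 of the 43 genes passed, Impg1 and 9330154J02Rik included, beside 34.7% of all genes tested.

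Cultured ESC and NPC of WT embryos differed in 26 of 39 genes tested (66.7%), beside 71.2% of all 15938 genes tested, with 15 genes higher in NPC (beside 34.6% of all genes) and 11 lower (beside 36.6%). By roles set by hand, 5 of the 7 genes of membrane traffic and cytoskeleton were higher in NPC than in ESC and 2 lower. Of the 9 metabolic genes 4 were higher and 2 lower. Ibtk, 1 of the 2 lower genes of the first group, could be placed elsewhere, and no theme is read from the groups. Myo6 was at 28.03 to 38.9 CPM in ESC and 610 to 1024 CPM in NPC, a log2 difference of 4.53 ± 0.34 (SE) with an FDR of 0.000267. Me1 was at 23.0 to 28.5 CPM in ESC and 194 to 255 CPM in NPC, a log2 difference of 3.15 ± 0.18 with an FDR of 0.000131. Prss35 was at 7.76 to 7.92 CPM in ESC and 45.2 to 57.0 CPM in NPC, a log2 difference of 2.66 ± 0.16 with an FDR of 0.000135. Elovl4 (10.9-fold, FDR 0.000297) and the sorting nexin Snx14 (1.90-fold, FDR 0.000577) were also higher in NPC, and no NPC sample of these 5 genes overlapped an ESC sample. Among the lower genes, Sh3bgrl2 was 5.13-fold lower in NPC (FDR 0.000106), Ibtk, an inhibitor of Bruton's tyrosine kinase, 2.49-fold (FDR 0.000266) and Bckdhb 2.00-fold (FDR 0.00344). Ttk, the spindle checkpoint kinase, was at 113 to 114 CPM in ESC and 38.8 to 62.1 CPM in NPC, a log2 difference of -1.16 ± 0.20 with an FDR of 0.00395. The other genes of meiosis and the cilium went the same way where they passed: Mei4 was at 10.7 to 11.3 CPM in ESC and 0 to 0.984 CPM in NPC, and Cep162 was 1.69-fold lower, whereas Lca5 had a log2 difference of 0.23 ± 0.15 that did not pass. The antisense RNA A330041J22Rik and Ankrd34c had 0 counts in both ESC samples, so no fold is given for them. Without the NPC samples A330041J22Rik would not have met the count rule, so that its difference was set by the rule. A330041J22Rik is still counted among the 26 genes and among the 15 higher in NPC.

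In PFC 41 of the 46 genes had enough counts to be tested, and the comparison of KO with WT is the one that chose the window. At an FDR of 0.05, 0 of the 41 passed, beside 0.638% of all 15364 genes tested, and DESeq2 also gave 0 of 46, beside 0.724% of its genes. An unadjusted p under 0.05 in edgeR was reached by 9 (22%), beside 11.2% of all genes tested, and in DESeq2 by 8 (17.4%), beside 4.89%. In every tissue DESeq2 took all genes with at least 1 count, here 24173, whereas the 46 genes had met the count rule. Its shares are therefore over an unlike set, with many low genes. Because the PFC values chose the window, nothing is read from these counts. The 9 genes were spread from Myo6, 1.463 Mb before the start of Htr1b, to Tmed3, 8.071 Mb after it. In KO 5 were higher (D430036J16Rik, Mei4, Tpbg, Prss35 and Mrap2), beside 4.73% of all genes tested, and 4 lower (Myo6, Bckdhb, Snhg5 and Tmed3), beside 6.5%. Of the 41 genes, 12 did not overlap between genotypes (29.3%, beside 17.1% of all genes tested). The median log2 difference over the 41 genes was 0.02, beside -0.02 over all genes tested, with a range from -0.50 to 1.56, and 21 genes were above 0 (51.2%), beside 44.1%.

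**Figure D3:**
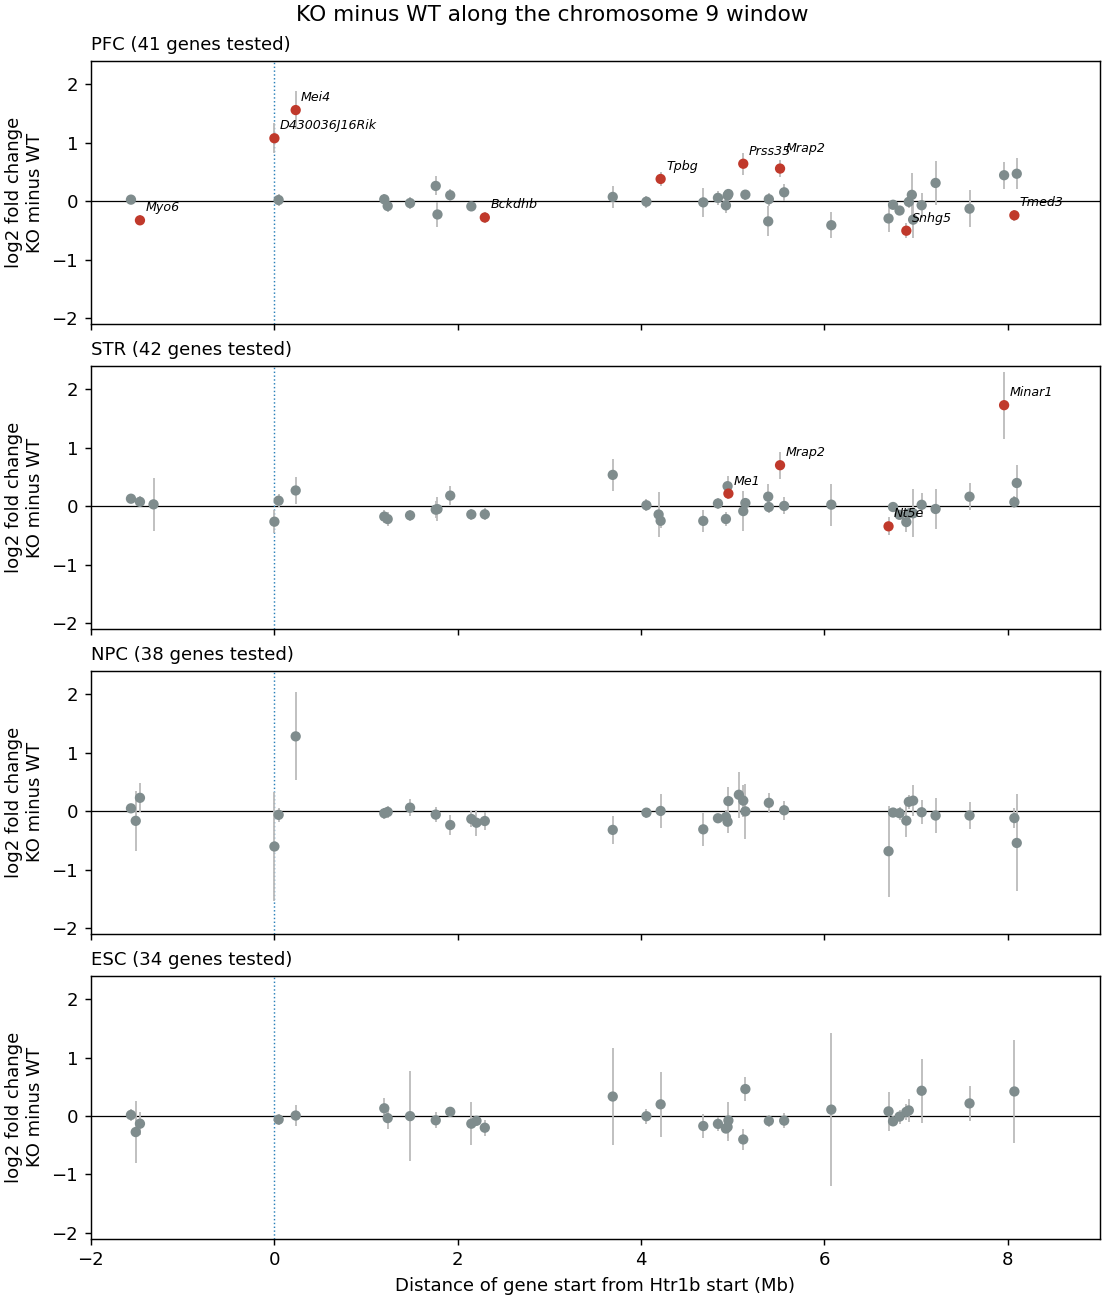
Log2 fold change of KO from WT (points) with its standard error (bars) for the genes tested in each tissue, against the distance of the gene start from the start of Htr1b in Mb (dotted line at 0). Red points with names had an unadjusted p under 0.05 in edgeR: 9 in PFC, where these values chose the window, 4 in STR and 0 in NPC and ESC.

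Mei4 and D430036J16Rik had the highest log2 differences of the 41 genes in PFC. D430036J16Rik, which overlaps Htr1b on the opposite strand, was at 2.05, 1.83 and 1.39 CPM in WT and 3.47, 4.43 and 3.49 CPM in KO samples, a log2 difference of 1.08 ± 0.26 (SE). Mei4, which starts 0.235 Mb from Htr1b, was at 0.84, 0.96 and 1.04 CPM in WT and 3.22, 2.03 and 3.22 CPM in KO samples, a log2 difference of 1.56 ± 0.32. Every KO sample of both genes was above every WT sample, but the levels rested on 8 to 19 reads and 6 to 10 reads per WT sample. Gm9531 starts between them, 0.049 Mb from Htr1b, with a log2 difference of 0.02 ± 0.10.

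Tpbg, Prss35 and Mrap2, farther from Htr1b, were higher in PFC KO samples as well. Tpbg was at 14.97, 14.24 and 15.45 CPM in WT and 18.08, 18.18 and 21.86 CPM in KO samples, a log2 difference of 0.38 ± 0.13. Prss35 was at 7.85, 8.27 and 12.33 CPM in WT and 13.01, 13.88 and 16.63 CPM in KO samples, a log2 difference of 0.64 ± 0.18. Mrap2, whose protein assists melanocortin receptors in the control of energy balance, was at 10.14, 10.39 and 13.54 CPM in WT and 15.48, 17.83 and 16.23 CPM in KO samples, a log2 difference of 0.56 ± 0.15. The highest WT samples of Prss35 and Mrap2 came close to the lowest KO sample, and in both genes that sample was WT replicate 3, which had the lowest total count. The genes between and beside them, Snap91 among them, had log2 differences of 0.11 ± 0.08 (Snap91), 0.12 ± 0.08 (Me1) and 0.04 ± 0.11 (Cyb5r4).

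The 4 genes that were lower in PFC KO samples lay at both ends of the window and within it. Myo6 was at 166.6, 195.3 and 164.8 CPM in WT and 153.6, 135.9 and 131.6 CPM in KO samples, a log2 difference of -0.33 ± 0.09. Bckdhb was at 34.5, 34.9 and 38.2 CPM in WT and 29.7, 29.0 and 29.9 CPM in KO samples, a log2 difference of -0.28 ± 0.09. Snhg5 was at 13.9, 14.1 and 13.4 CPM in WT and 9.41, 10.05 and 9.79 CPM in KO samples, a log2 difference of -0.50 ± 0.13. The KO samples of Snhg5 lay close together and below every WT sample. Tmed3, a cargo receptor of the early secretory pathway, was at 38.4, 40.3 and 42.0 CPM in WT and 33.6, 34.5 and 34.1 CPM in KO samples, a log2 difference of -0.24 ± 0.09. The oligodendrocyte and blood sums were also lower in every PFC KO than in every WT sample, and their part in these values was not tested.

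**Figure D4:**
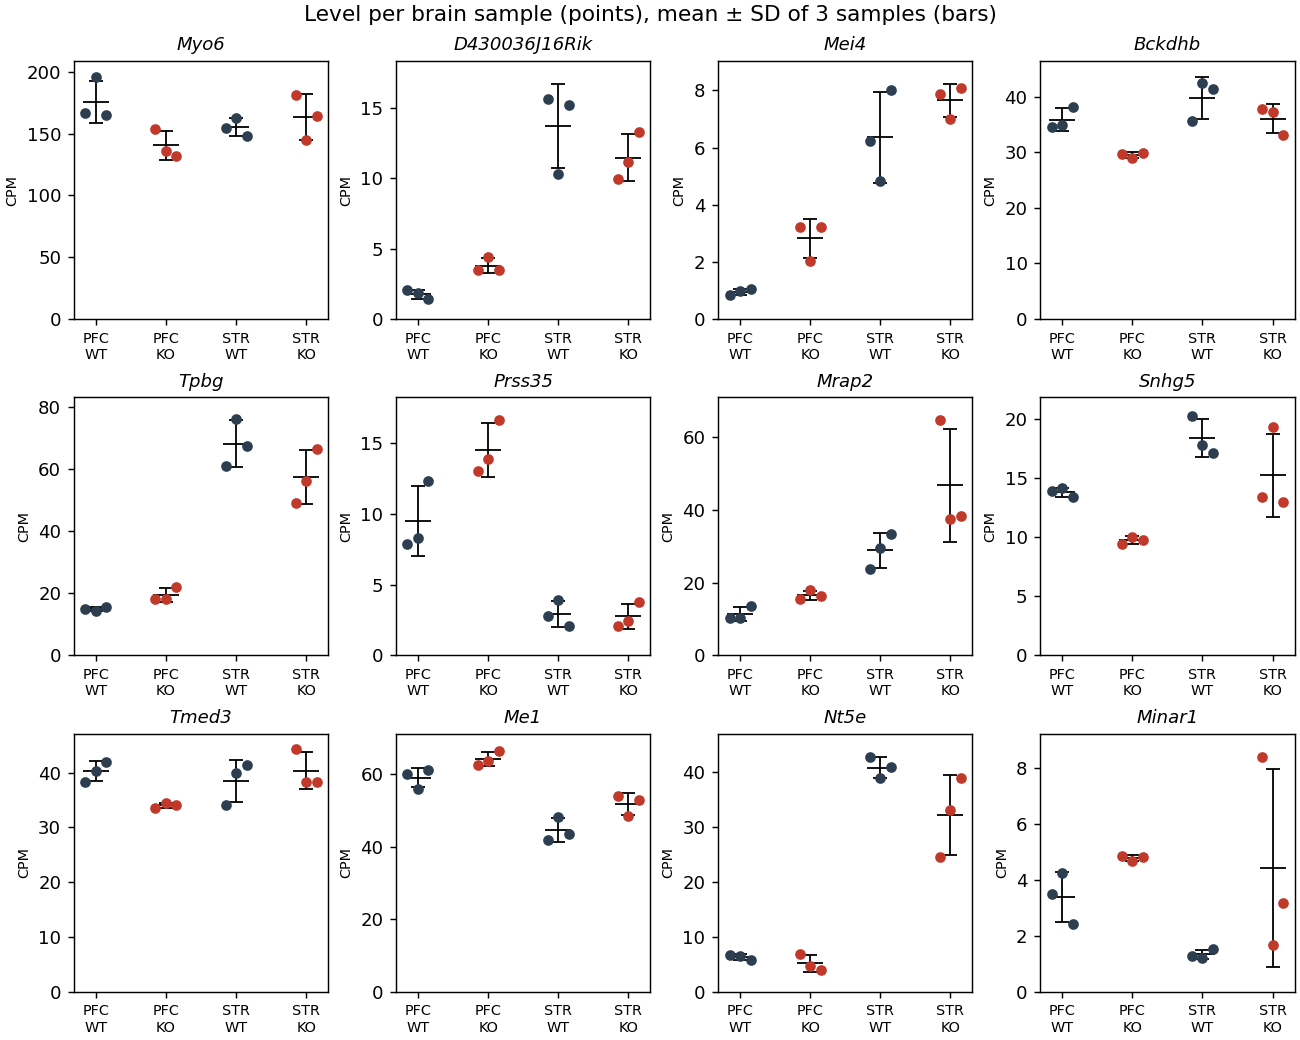
Level in CPM of 12 genes in each PFC and STR sample (points, WT dark and KO red), with the mean and SD of 3 samples as bars and axes from 0; levels were normalised within each region. In PFC the KO and WT points of the first 9 genes do not overlap, and in STR the highest Minar1 and Mrap2 points are those of KO replicate 1.

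By role, and again as a description of the values that chose the window, fitted differences in PFC were read beside the 44.1% of all genes above 0. Of the 7 genes of chromatin, transcription and RNA 0 were above 0 (median log2 difference -0.16). They ranged from Zfp949 at -0.01 ± 0.10 and Hmgn3 at -0.03 ± 0.10 over Phip, a bromodomain protein, at -0.08 ± 0.10 and Syncrip, an RNA binding protein of transport granules, at -0.16 ± 0.08 to Snhg5. The KO and WT samples of Zfp949, Hmgn3, Phip and Syncrip overlapped. The roles were set by hand with each gene in 1 group, so the 0 depends on the placement. Tent5a, which could also be placed with the RNA genes, was counted as metabolic and was at 0.08 ± 0.19, with overlapping groups. Of the 9 metabolic genes 3 were above 0 (median -0.07), and of the 7 genes of membrane traffic and cytoskeleton 3 (median -0.01). Of the 4 genes of cell division and the cilium, Ttk had too few counts to be tested, at a mean of 0.339 CPM in WT and 0.162 CPM in KO samples. The other 3 had a median of 0.26, with overlapping groups for Lca5 (0.26 ± 0.16) and Cep162 (0.15 ± 0.14). Along the window in steps of 2 Mb, the number of genes with an unadjusted p under 0.05 was 3 of 5 at 80 to 82 Mb, 1 of 8, 1 of 3, 2 of 12 and 2 of 13 at 88 to 90 Mb. The share over all genes tested was 11.2%. Because the window was chosen by these values, nothing is read from the counts by position.

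STR was not used to choose the window, and there 0 of the 42 genes tested passed an FDR of 0.05 in edgeR, as did 0 of all 15476 genes tested (0% called). DESeq2 also gave 0, beside 0.205% of its genes. An unadjusted p under 0.05 was reached in edgeR by 4 genes (9.52%), beside 8.7% of all genes tested. In DESeq2 it was reached by 3 (6.52%), beside 4.53% of its 24389 genes, again taken with no count filter. Of the 4 genes 3 were higher, beside 5.67%, and 1 lower, beside 3.02%. In STR 5 genes (11.9%) did not overlap between genotypes, beside 13.4%. The share of genes was near the background on both counts. The median log2 difference was -0.00427, beside 0.00198 over all genes tested, with 21 of the 42 above 0 (50%), beside 50.6%.

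Me1, Mrap2 and Minar1 had higher values in STR KO samples, and Nt5e lower ones. Mrap2 was at 23.8, 29.4 and 33.4 CPM in WT and 64.7, 37.3 and 38.2 CPM in KO samples, a log2 difference of 0.70 ± 0.23 (SE) with an unadjusted p of 0.015 and an FDR of 0.452 in edgeR's quasi-likelihood test. Minar1, which encodes a membrane protein associated with the NOTCH2 receptor, was at 1.27, 1.20 and 1.52 CPM in WT and 8.40, 1.69 and 3.17 CPM in KO samples, a log2 difference of 1.73 ± 0.57 with an unadjusted p of 0.0145 and an FDR of 0.452. In both genes the groups did not overlap, and the highest sample was KO replicate 1, the one with the highest hypothalamic sum. Without that sample the log2 difference was 0.39 for Mrap2 (unadjusted p 0.0221, FDR 0.935) and 0.85 for Minar1 (unadjusted p 0.0684, FDR 0.999). The hypothalamic sums of KO replicates 2 and 3 were also above those of every WT sample, and their part in these values was not tested. The p of Mrap2 was 0.0538 without WT replicate 1. Nt5e was at 42.7, 38.8 and 40.8 CPM in WT and 24.5, 33.1 and 39.0 CPM in KO samples, a log2 difference of -0.34 ± 0.15 with an unadjusted p of 0.0475 and an FDR of 0.570. The lowest value was again that of KO replicate 1, where the striatal projection neuron sum was lowest too (1020 CPM, against 1202 to 1390 CPM in the others), and without it the difference was -0.19 (unadjusted p 0.14). The p of Nt5e was also above 0.05 without KO replicate 2 (0.0696) and without WT replicate 1, 2 or 3 (0.132, 0.0605 and 0.0991). Me1 was at 41.9, 48.2 and 43.5 CPM in WT and 53.9, 48.4 and 52.8 CPM in KO samples, a log2 difference of 0.22 ± 0.09 with an unadjusted p of 0.0393 and an FDR of 0.550. Its p was 0.12 without KO replicate 1, 0.0931 without KO replicate 3, and 0.115 and 0.0962 without WT replicates 1 and 3. Without KO replicate 1 only Mrap2 of the 42 genes then had an unadjusted p under 0.05. The share of all genes with such a p in that fit is not given here.

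Of the 9 genes described in PFC, Mrap2 was the one with an unadjusted p under 0.05 in STR as well. Mei4 was at 6.21, 4.82 and 8.03 CPM in WT and 7.88, 7.002 and 8.08 CPM in KO samples of STR, with a log2 difference of 0.27 ± 0.22 and overlapping groups. D430036J16Rik was at 15.6, 10.3 and 15.2 CPM in WT and 9.95, 11.2 and 13.3 CPM in KO samples, with a log2 difference of -0.26 ± 0.20, on the other side of 0 from PFC. Tpbg likewise had a log2 difference of -0.25 ± 0.12 in STR. The differences of Snhg5 (-0.27 ± 0.18) and Bckdhb (-0.14 ± 0.11) were on the same side as in PFC. Those of Myo6 (0.08 ± 0.09), Prss35 (-0.08 ± 0.34) and Tmed3 (0.07 ± 0.11) were not, and the FDR of each of these 8 genes was 0.614 or higher.

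Over the 40 genes tested in both regions, 26 (65.0%) had the same sign of KO minus WT, beside 60.3% of all 14954 genes tested in both, and Pearson's r of the log2 differences was 0.29, beside 0.27 over all genes. Of the 9 genes described in PFC 4 had the same sign in STR (44.4%), beside 69.1% of the 1684 genes with an unadjusted p under 0.05 in PFC. The points are neighbouring genes measured in the same libraries, and same-numbered PFC and STR samples deviated together, so these values are a description.

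**Figure D5:**
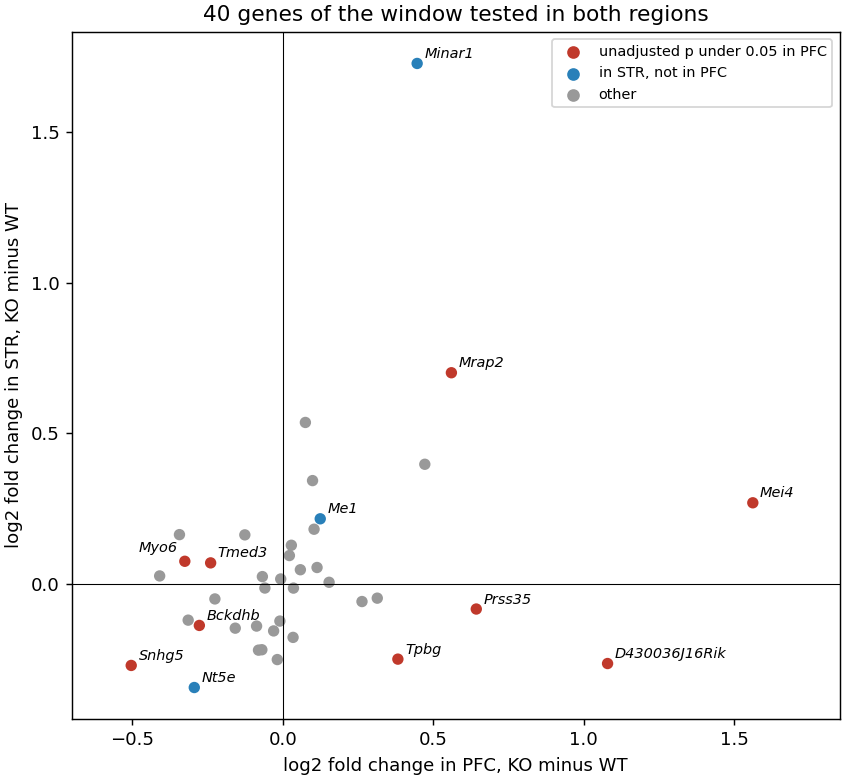
Log2 fold change of KO from WT in PFC (horizontal axis) and STR (vertical axis) for the 40 genes tested in both regions; red points had an unadjusted p under 0.05 in PFC, blue points in STR only, and grey points in neither. Mrap2, Mei4, Snhg5 and Bckdhb lie on the same side of 0 in both regions, and D430036J16Rik, Tpbg, Prss35, Myo6 and Tmed3 do not.

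In NPC 0 of 38 genes tested passed an FDR of 0.05, beside 0.00697% of all 14351 genes tested. An unadjusted p under 0.05 was reached by 0 in edgeR, beside 3.03%. DESeq2 gave 0 for both, beside 0.0131% and 1.49% of its genes. The groups of 3 genes (7.89%) did not overlap, beside 8.33%: Mei4 and the zinc finger gene Zfp949 were higher and Dop1a, a gene of Golgi traffic, lower in KO samples. Mei4 was at 0.71, 0 and 0.97 CPM in WT and 1.48, 1.26 and 1.54 CPM in KO samples of NPC, a log2 difference of 1.28 ± 0.75 with an unadjusted p of 0.136. It was the only one of the 38 genes with a fitted difference above 1 in NPC, and its value there rested on few reads. D430036J16Rik (-0.61 ± 0.93) and Nt5e (-0.69 ± 0.78) had wide errors, with Nt5e at 30.7 CPM in WT replicate 2 and 13.3 CPM in KO replicate 2, against 4.65 to 6.91 CPM in the other 4 samples. Same-numbered NPC samples deviated together, and with the number as a block 3 of 38 genes (7.89%) had an unadjusted p under 0.05 in edgeR, beside 10.5% of all genes tested. These were Myo6 (log2 difference 0.24, p 0.00931), Ttk (-0.20, 0.0208) and Snhg5 (-0.17, 0.0446), each with an FDR of 0.365 or higher. In the PFC description Myo6 was on the other side of 0.

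In ESC 0 of 34 genes tested passed an FDR of 0.05 and 0 reached an unadjusted p under 0.05 in edgeR, beside 0% and 1.13% of all 15080 genes tested. DESeq2 gave 0 for both, beside 0.0125% and 0.259% of its genes. With 2 samples against 2, the groups of 10 genes (29.4%) did not overlap, beside 23.8%. Mei4 was at 11.6 and 10.9 CPM in WT and 12.5 and 10.1 CPM in KO samples of ESC, with a log2 difference of 0.01 ± 0.18. Prss35 was at 7.91 and 8.07 CPM in WT and 6.17 and 5.93 CPM in KO samples, a log2 difference of -0.40 ± 0.18. Snap91 was at 4.51 and 4.86 CPM in WT and 6.02 and 6.89 CPM in KO samples, a log2 difference of 0.46 ± 0.21. Pgm3, which makes the sugar donor precursor of protein glycosylation, was at 48.8 and 48.9 CPM in WT and 42.0 and 42.2 CPM in KO samples, a log2 difference of -0.21 ± 0.08 with an unadjusted p of 0.0582, the smallest of the 34. The errors were wide for genes that differed between replicate 1 and replicate 2 of both genotypes, among them Tmed3 (5.70, 13.5, 5.06 and 20.8 CPM) and Hmgn3 (2.38, 6.73, 2.35 and 6.81 CPM in the same order of WT and KO samples). The medians over the genes tested were -0.05 in NPC and -0.02 in ESC, beside 0.00324 and 0.00902 over all genes, and 12 of 38 and 14 of 34 genes were above 0, beside 51.1% and 52.6% of all genes tested.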

How the data were processed

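The deposited files hold raw read counts per gene, 1 table for each of the 22 samples. Per the labels, libraries were made with the Illumina TruSeq RNA kit; per the submitters' processing notes and the methods, the authors used CASAVA 1.7 and STAR on mm10 (GRCm38) and counted reads with HTSeq on Ensembl genes, without normalisation of the deposited counts. Rows that name no gene (20.2% to 53.1% of a sample's reads) were left out. Groups came from the sample titles.

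Positions, symbols and exon lengths came from the GENCODE M21 release for GRCm38, newer than the Ensembl 75 genes the authors counted, and 37693 of 39179 identifiers matched (99.7% of counts). Promoters came from the RefSeq table on GRCm38.p6. Each contrast was fitted on its own groups over all genes with edgeR 4.0.16 (filterByExpr, TMM, robust quasi-likelihood, two-sided, Benjamini-Hochberg over all genes tested) in R 4.3.3. DESeq2 1.42.0, RLE size factors, 2 other filters, the replicate number as a block and each sample left out were alternatives. DESeq2 was run on all genes with at least 1 count in the samples compared. The fit was also run on counts simulated from its own dispersion, with independent samples and changes set only in genes at or above the median level. Its outcome is not given here. Such a run does not bear on recovery in low-count genes, on paired samples or on shifts of cell types. Of genes with an unadjusted p under 0.05, at most the 5 higher and 5 lower with the smallest p are given in full. The members and lists were chosen with earlier results of these data known.

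Whether numbers pair samples was judged from the correlation of deviations. Same-numbered samples correlated at 0.524 to 0.705 in NPC and at 0.186 to 0.392 between WT PFC and WT STR, so these were judged paired. The main fits of these contrasts still had no block, and the block fit is given beside them as an alternative. The correlations were -0.032 to 0.0546 in PFC and -0.0215 to 0.133 in STR, so these were not judged paired. No pair of replicates agreed within sampling noise (chi-square of their counts divided by its degrees of freedom, 1.83 to 37.3). Nothing says that samples came from separate animals or cultures, so p-values measure the spread between these samples, which may be technical. Precision is set by depth, 5898286 to 15539811 counts, and genes under 1 CPM rest on a few reads.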

Additional observations from a re-analysis of the deposited data

Results flagged for a closer look

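In 4 genes the KO samples of PFC all lay on one side of the WT mean and those of STR all on the other side. In 1 gene this held for NPC and ESC. The difference between tissues was not tested in any of them. The share of all genes that met this rule is not given here, so nothing is read from the number of genes. For D430036J16Rik the log2 difference of KO from WT was 1.08 in PFC and -0.26 in STR, which are 1.34 apart. For Tpbg it was 0.38 in PFC and -0.25 in STR, 0.63 apart. For Ripply2, a repressor of somite patterning, it was -0.34 ± 0.26 (SE) and 0.16 ± 0.22, a difference of -0.51. For Mthfs, an enzyme of folate metabolism, it was -0.13 ± 0.32 and 0.16 ± 0.23, a difference of -0.29. For Cyb5r4 it was 0.14 ± 0.17 in NPC and -0.08 ± 0.10 in ESC, 0.23 apart. PFC values of D430036J16Rik and Tpbg are among those that chose the window.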

How the results depend on the processing

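Of the counts and medians recomputed under alternative settings, 132 values stayed within 1.5 times the reported count or within the spread between replicates, and 16 moved. In PFC the number of genes at an FDR of 0.05 was 5 with no filter on low counts (Prss35, Myo6, Mrap2, Mei4 and D430036J16Rik) and 0 to 1 with a sample left out (Prss35, without WT replicate 3), against 0 reported. The share of all genes called under these settings is not given here. Because the PFC values chose the window, nothing is read from these counts. The PFC median of 0.0221 was -0.0039 with at least 10 counts in every sample and fell to -0.0109 without KO replicate 2. In STR 1 to 6 genes had an unadjusted p under 0.05 with a sample left out, against 4, with the 1 without KO replicate 1 and 2 without WT replicate 1 or 3. For STR too, the share of all genes under these settings is not given here, and nothing is read from the counts. Among the 10 highest genes by RPKM in WT PFC, 6 were among the 10 highest by CPM.

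With the replicate block, 3 genes in NPC and 5 in ESC (14.7%, beside 15.6% of all genes tested) had an unadjusted p under 0.05, against 0 without it. The numbers of the 2 ESC pairs correlated at 0.876, but 2 pairs do not settle whether they pair. The block moved no count of genes at an FDR of 0.05 by over 1.5 times. In NPC 0 to 2 genes had an unadjusted p under 0.05 in edgeR with a sample left out (2 without KO replicate 2). Without replicate 2 of both genotypes, a setting chosen after seeing the data, 2 genes had one. The share of all genes under these settings is not given here.

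Signs of single genes were followed only for the 12 genes with an unadjusted p under 0.05 in edgeR in PFC or STR. Over all settings their log2 differences changed sign 30 times and kept it 636 times. The changes were 13 in ESC, 12 in NPC and 5 in STR, and 0 in PFC or between WT tissues. Of the 12 genes, 9 were taken by their PFC values, so nothing is read from the 0 in PFC. Left-out samples gave these ranges. In STR they were Myo6 -0.0125 to 0.1533, Prss35 -0.3617 to 0.167 and Tmed3 -0.0108 to 0.122. In NPC they were Tpbg -0.2149 to 0.2659 (-0.0012 with DESeq2), Me1 -0.0285 to 0.4034, Prss35 -0.0363 to 0.4404, Nt5e -1.1694 to 0.6843 (0.2029 without both replicates 2), Snhg5 -0.4636 to 0.0939 and Tmed3 -0.2177 to 0.0904 (0.036 without both replicates 2). In ESC they were Myo6 -0.3498 to 0.1173, Mei4 -0.1547 to 0.1487, Tpbg -0.4724 to 0.7836, Me1 -0.5124 to 0.2553, Nt5e -0.319 to 0.3886, Snhg5 -0.065 to 0.211 and Tmed3 -0.9276 to 1.1748. The median over the genes tested ranged from -0.0787 to 0.022 in NPC, from -0.0881 to -0.0379 in ESC and from -0.0109 to 0.0363 in PFC. The cause was not tested.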
